A study of Solanum tuberosum with 8 samples.

Results

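The genes described here are the heat shock proteins and chaperones of the potato tuber, 122 of the 32768 genes in the table of counts. They were chosen by the product names of the annotation (heat shock, heat stress transcription factor, chaperone protein dnaJ, chaperonin, small heat shock protein and chaperone protein Clp), with histone chaperones left out. A total of 132 genes had such a name, and the 122 with at least 80 counts summed over the 8 libraries were kept. The gene just inside this limit was LOC102582967, a class I heat shock protein-like gene with 82 counts, and the gene just outside it was LOC102593021, an 18.1 kDa class I gene with 78. Sorted by product name, the 122 genes were 29 small heat shock proteins (HSP20), 19 HSP70, 6 HSP90, 29 DnaJ proteins, 15 heat stress transcription factors (HSF), 5 Clp proteins, 11 chaperonins and 8 others. The 8 others were 5 genes named heat shock factor protein, 2 heat shock factor-binding proteins and 1 activator of the HSP90 ATPase. Because genes were sorted by name alone, the HSF sums, medians and ratios leave out the 5 genes named heat shock factor protein.

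All libraries came from fully developed, untreated tubers of the diploid F1 population 12-3, taken after harvest from plants grown in pots under a tent. RNA of 6 plants was pooled into each of 4 bulks, and each bulk had 2 replicate libraries, A and B. Bulk L1 held plants of low tuber starch content (TSC) and high *AGPaseS-a* expression, L2 plants of low TSC and low *AGPaseS-a* expression, H1 plants of high TSC and high *AGPaseS-a* expression, and H2 plants of high TSC and low *AGPaseS-a* expression. H1 and H2 served as the control bulks. The study's methods call A and B biological replicates. Whether the same plants stand behind both is not stated, and p-values measure only the spread between these libraries, which may be technical.

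Chaperones bind proteins that are not yet folded or have lost their fold. Small heat shock proteins hold unfolded proteins without using ATP, DnaJ proteins hand them to HSP70, HSP90 finishes the folding of many signalling proteins, chaperonins enclose proteins in a barrel, and Clp proteins of the ClpB type pull aggregates apart. In plants most HSP20 genes are nearly silent until heat, drying or embryo maturation, when heat stress transcription factors switch them on, while the heat shock cognate HSP70 and HSP80 genes are active in all tissues.

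The counts on genes summed to 15293539 to 31943185 per library, with the lowest total in H1 A. The 122 genes took 2.57% to 3.00% of the counts of a library, and all 122 passed the filter on low counts (20389 genes tested). Libraries H1 A and H2 B stood apart, with a median correlation with the other libraries, over the log2 CPM of all tested genes, of 0.941 and 0.959, against 0.974 to 0.980 for the other 6. Their summed level of 8 genes of dividing cells (cyclin-B and histone H4) was 1049 CPM in H1 A and 933.7 CPM in H2 B, against 395.5 to 508.5 CPM in the other 6 libraries. CPM here means counts scaled to a common total per library after TMM, with no correction for gene length, so levels are compared between libraries and not between genes. The storage parenchyma markers patatin and granule-bound starch synthase summed to 16970 to 28180 CPM, green tissue markers to 65.06 to 283.3 CPM and periderm markers to 16.17 to 46.56 CPM. In bulk tissue, fewer cells of a type and less RNA per cell cannot be told apart. Most genes carried the protein domain of their family in the deposited annotation, with 29 of 29 for HSP20, 19 of 19 for HSP70, 5 of 6 for HSP90 and 27 of 29 for DnaJ. The sources used here do not give the strand setting of the counting, and counts of neighbouring or near-identical copies are uncertain.

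The families differed in how evenly they were expressed over the 8 libraries. The 29 HSP20 genes summed to 2303 and 2633 CPM in L1 A and B and 4793 and 2686 CPM in L2 A and B, against 5206 and 2620 CPM in H1 A and B and 2107 and 5777 CPM in H2 A and B. Thus L2 A, H1 A and H2 B were high, and each was high against its own replicate, by 1.78-fold in L2, 1.99-fold in H1 and 2.74-fold in H2. L1 A and B differed by 1.14-fold. The 29 DnaJ genes had sums of 973.1 and 893.3 CPM in L1 and 1028 and 1145 CPM in L2, against 1025 and 1078 CPM in H1 and 1085 and 1003 CPM in H2. After TMM the highest library was 1.28 times the lowest in DnaJ, 1.32 times in HSF, 1.55 times in HSP70, 1.84 times in HSP90 and 2.74 times in HSP20. With library totals in place of TMM these ratios were 1.47 in DnaJ, 1.21 in HSF, 1.22 in HSP70, 1.49 in HSP90 and 2.53 in HSP20. HSP20 and HSP90 had the 2 highest of these 5 ratios under both scalings, and the order of the other 3 differed. After TMM the ratio was 1.73 in Clp, 1.52 in the chaperonins and 1.90 in the 8 others, the last above HSP90. With library totals it was 1.87 in Clp, 1.84 in the chaperonins and 1.58 in the 8 others, all above HSP90. Gene by gene, the median ratio of the highest to the lowest library after TMM was 3.89 in HSP20, 2.60 in HSP90, 2.34 in Clp, 1.95 in HSF, 1.92 in HSP70, 1.82 in DnaJ and 1.79 in the chaperonins, beside 2.43 over all tested genes.

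**Figure D1:**
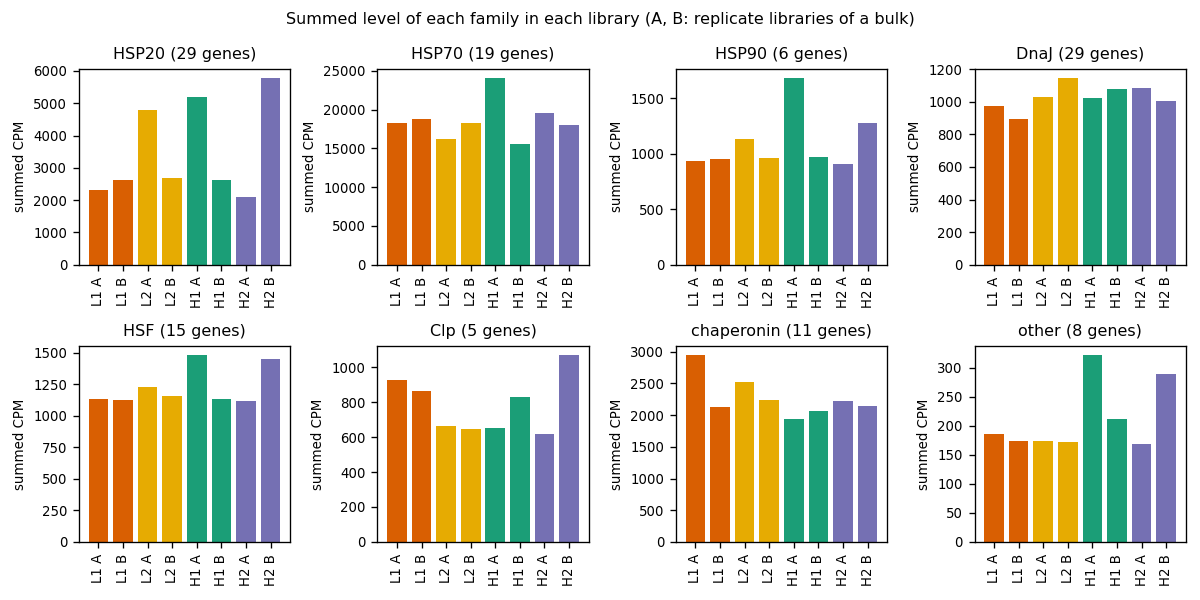
Summed CPM of each family (y axis, one panel per family, each with its own scale from 0) in the 8 libraries (x axis, low-TSC bulks L1 and L2 left of high-TSC bulks H1 and H2; A and B are replicate libraries). The HSP20 sum is highest in H2 B at 5777 CPM, H1 A at 5206 CPM and L2 A at 4793 CPM, while the DnaJ sum stays between 893.3 and 1145 CPM.

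The HSP20 sum rested mainly on cytosolic class I genes, which bind unfolded proteins in the cytosol. The most abundant was LOC102578188 (18.2 kDa class I), with 1087 and 1376 CPM in L1 A and B and 2394 and 1439 CPM in L2 A and B, against 2918 and 1161 CPM in H1 A and B and 1032 and 2963 CPM in H2 A and B. Its neighbour LOC102606179, another 18.2 kDa class I gene, had 402.4 and 385.7 CPM in L1 and 615.2 and 355.5 CPM in L2, against 643.0 and 368.2 CPM in H1 and 254.2 and 730.0 CPM in H2. In both genes the high libraries were again L2 A, H1 A and H2 B. The third, LOC102606436 (17.6 kDa class I), had 285.5 and 246.9 CPM in L1 and 528.7 and 168.3 CPM in L2, against 494.0 and 426.5 CPM in H1 and 303.7 and 556.7 CPM in H2. Without the most abundant gene the HSP20 sum was still 2400 CPM in L2 A against 1247 CPM in L2 B, 2288 against 1459 CPM in H1, and 1074 against 2814 CPM in H2.

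In H2, H1 and L2, but not in L1, most HSP20 genes were higher in the same replicate library of the bulk. In H2, all 29 HSP20 genes were higher in B after TMM (28 with library totals), with a median log2 ratio of A over B of -1.05 (CPM plus 2), beside 0.04 over all tested genes, of which 53.1% were higher in A. For H1, 24 of 29 were higher in A (median 0.74, beside -0.05 over all tested genes), and 19 with library totals (median 0.45, beside -0.26). For L2, 23 of 29 were higher in A (median 0.58, beside -0.01), among them 14 of the 15 class I genes, and 21 with library totals (median 0.51, beside -0.05). L1 showed no such shift, with 16 of 29 higher in A and a median of 0.04. The library with the highest level was H2 B for 15 of the 29 genes, H1 A for 6, L2 A for 6 and L2 B for 2, and neither an L1 library, H1 B nor H2 A for any of them. Over all tested genes, H2 B was the highest library for 14.5%, H1 A for 24.7% and L2 A for 8.84%. These values compare 2 libraries at a time and describe these libraries, since each bulk has no further replicate. In H1 A and H2 B, the libraries with the high dividing-cell markers, the HSP20 shift went with that marker level, and its part in the shift was not tested. L2 A had 433.4 CPM of these markers and L2 B had 449.1 CPM.

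**Figure D2:**
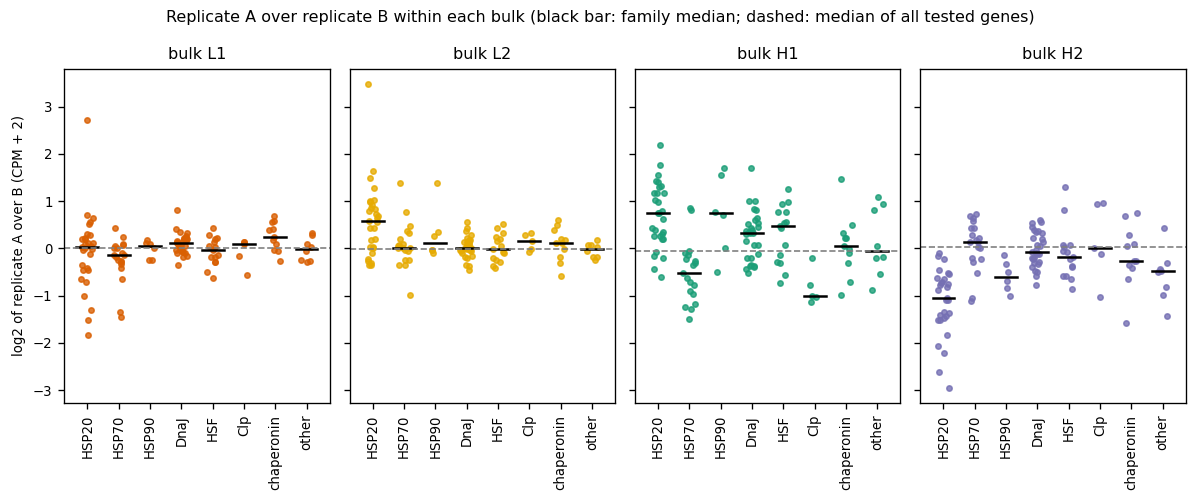
Log2 ratio of replicate A over replicate B (y axis, after adding 2 to the CPM) of each gene, by family (x axis), in bulks L1, L2, H1 and H2; black bars are family medians and the dashed line is the median of all tested genes. The HSP20 points lie at or below -0.09 in H2. The HSP20 median is 0.74 in H1 (points from -0.61 to 2.19), 0.58 in L2 (-0.36 to 3.48) and 0.04 in L1 (-1.83 to 2.72).

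Several HSP20 genes of low to moderate level had large ratios between replicates. LOC102578786 (17.6 kDa class I) had 2.63 and 9.44 CPM in L1 A and B and 29.7 and 19.6 CPM in L2 A and B, against 19.8 and 2.80 CPM in H1 A and B and 2.13 and 29.9 CPM in H2 A and B, a ratio of 7.09 in H1 and 14.1 in H2. LOC102589396 (17.4 kDa class I) had 21.1 and 64.2 CPM in L1 and 59.0 and 3.48 CPM in L2, against 63.8 and 73.4 CPM in H1 and 24.3 and 159.4 CPM in H2. The level of this gene in L2 B was the lowest of its 8 values, 16.9-fold under L2 A. LOC102584371 (22.7 kDa class IV, a class of the endoplasmic reticulum) had 19.3 and 1.23 CPM in L1 and 41.2 and 52.6 CPM in L2, against 9.52 and 1.40 CPM in H1 and 14.3 and 15.4 CPM in H2. It was high in both L2 libraries and low in B of L1 and of H1. LOC102591190 (17.4 kDa class III) had 8.21 and 6.26 CPM in L1 and 10.4 and 4.57 CPM in L2, against 8.10 and 11.6 CPM in H1 and 3.47 and 21.1 CPM in H2, the last pair 6.06-fold apart.

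Position was shared by many of the HSP20 genes. Of the 122 genes, 29 had another member starting within 50 kb on the same scaffold, in 10 groups, and 14 of these 29 were HSP20. On scaffold NW_006239053.1 of SolTub_3.0, 5 class I genes (LOC102605425, LOC102605762, LOC102578786, LOC102578442 and LOC102606436) start between positions 660041 and 674648. B was the higher library for all 5 in H2, as it was for all 29 HSP20 genes after TMM. The ratios of these 5 genes in H2 ran from 1.83-fold in LOC102606436 to 14.1-fold in LOC102578786. On NW_006239255.1, 4 class I genes (LOC102588416, LOC102588746, LOC102589078 and LOC102589396) start between 48934 and 96263. The 2 most abundant HSP20 genes start at 537265 and 539537 on NW_006238988.1, beside a pair of 20 kDa chloroplast chaperonin genes. One of those chaperonins, LOC102578514, starting at 540425, had 140.6 and 105.7 CPM in L1 and 102.4 and 102.8 CPM in L2, against 139.0 and 109.9 CPM in H1 and 122.5 and 156.3 CPM in H2. The chaperonin thus varied 1.53-fold over the 8 libraries, beside 2.87-fold for each of its HSP20 neighbours.

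HSP20 genes are short, with a median genomic length of 894 bases against 3595 bases for HSP70, 3521.5 for HSP90, 4012 for DnaJ and 4132 for all tested genes. In H1 and H2 the difference between replicates also moved with gene length over all genes. Tested genes of at most 2000 bases had a median log2 ratio of A over B of 0.15 in H1 and -0.11 in H2, and those over 5000 bases -0.21 in H1 and 0.17 in H2. The HSP20 medians of 0.74 and -1.05 were farther from 0 than those of short genes, and in L2 the short genes had a median of 0.00 beside 0.58 for HSP20. The 6 HSP90 genes had medians of 0.74 in H1 and -0.59 in H2. With library totals the medians were 0.39 in H1 and -0.48 in H2 for HSP90, and 0.45 and -0.94 for HSP20. What part length plays was not tested.

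**Figure D3:**
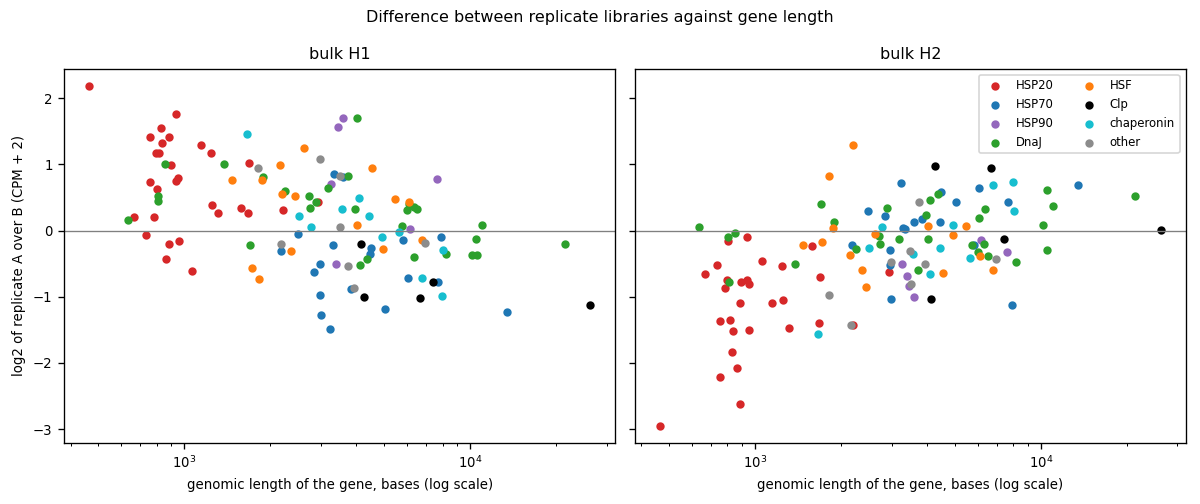
Log2 ratio of replicate A over replicate B (y axis, after adding 2 to the CPM) against the genomic length of each of the 122 genes (x axis, bases, log scale), coloured by family, in bulks H1 and H2. HSP20 genes (red) lie at the short end and are mostly above 0 in H1 (24 of 29) and below 0 in H2 (29 of 29), and HSP90 genes (purple), at a median of 3521.5 bases, lie on the same sides (5 of 6 and 6 of 6).

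HSP70 carried most of the chaperone counts, with 58.1% to 70.3% of the summed CPM of the 122 genes. Its 19 genes summed to 18250 and 18720 CPM in L1 and 16240 and 18330 CPM in L2, against 24050 and 15530 CPM in H1 and 19510 and 18020 CPM in H2. From 77.9% to 89.0% of this came from LOC102580808 and LOC102603624, both heat shock cognate 70 kDa protein 2, the constitutive cytosolic form. LOC102580808 had 11090 and 10910 CPM in L1 and 9476 and 12030 CPM in L2, against 15850 and 9041 CPM in H1 and 12410 and 11320 CPM in H2. LOC102603624 had 3767 and 3998 CPM in L1 and 3528 and 3339 CPM in L2, against 5558 and 3055 CPM in H1 and 3847 and 3806 CPM in H2. After TMM, H1 A had the highest level of both genes and of the HSP70 sum. With library totals the HSP70 sum was 19870 CPM in L1 B and 19910 CPM in L2 B, against 19820 CPM in H1 A and 19990 CPM in H2 A, so that H1 A did not stand above these libraries. The rest of the family went the other way in H1, where 17 of 19 HSP70 genes were higher in B (median log2 ratio of A over B -0.51). The third in level, LOC102588246, the stromal HSP70 of plastids, had 1632 and 1570 CPM in L1 and 1248 and 1251 CPM in L2, against 1159 and 1391 CPM in H1 and 1440 and 964.8 CPM in H2. One HSP70 gene varied as much as the small heat shock proteins. LOC102579387 (heat shock 70 kDa protein-like) had 5.26 and 18.0 CPM in L1 and 6.09 and 13.9 CPM in L2, against 1.75 and 8.54 CPM in H1 and 29.4 and 17.01 CPM in H2.

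The 6 HSP90 genes summed to 932.5 and 952.0 CPM in L1 and 1130 and 961.8 CPM in L2, against 1683 and 968.1 CPM in H1 and 912.9 and 1281 CPM in H2. The cytosolic gene heat shock protein 83 (LOC102603244) had 258.0 and 306.7 CPM in L1 and 386.9 and 304.8 CPM in L2, against 383.6 and 234.9 CPM in H1 and 265.2 and 375.8 CPM in H2. Mitochondrial HSP90-6 (LOC102591977) had the smallest ratio of highest to lowest library of the genes with counts in every library (1.28 after TMM, 1.26 with library totals), at 263.2 and 247.7 CPM in L1 and 270.3 and 225.9 CPM in L2, against 288.7 and 284.6 CPM in H1 and 248.5 and 274.1 CPM in H2. Chloroplastic HSP90-5 (LOC102578539) lay between 171.3 and 177.3 CPM in the 4 low-TSC libraries, against 354.9 and 205.9 CPM in H1 and 171.5 and 215.5 CPM in H2. Its highest value, in H1 A, was 2.07 times the lowest. In H2 B and H1 A the HSP90 sum was high together with that of HSP20, and the HSP90 sum of L2 A was also the highest of the low-TSC libraries.

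DnaJ proteins, which bring substrates to HSP70 and start its ATP hydrolysis, had none of the libraries L2 A, H1 A and H2 B among their 3 highest sums. LOC102605311 (chaperone protein DnaJ-like) led the family with 430.0 and 386.0 CPM in L1 and 488.4 and 616.6 CPM in L2, against 440.2 and 580.1 CPM in H1 and 554.8 and 440.8 CPM in H2. LOC102583196 (dnaJ 50) lay between 60.1 and 72.9 CPM in the low-TSC libraries and between 56.3 and 75.0 CPM in the high-TSC libraries. LOC102582374 (dnaJ 20, a chloroplast form) lay between 42.1 and 64.0 CPM in low TSC and between 49.3 and 71.5 CPM in high TSC. The median log2 ratio of A over B was 0.32 in H1, where 20 of 29 DnaJ genes were higher in A, -0.08 in H2, 0.01 in L2 and 0.11 in L1. With library totals these medians were 0.02 in H1, 0.04 in H2, -0.05 in L2 and 0.05 in L1, so that the signs in H2 and L2 turned. For all 3 genes the groups overlapped in low against high TSC and in L2 against H2. After TMM, L1 and H1 did not overlap, with LOC102605311 and LOC102582374 lower in L1 and LOC102583196 higher. In L1 against H1, 16.8% of all tested genes were lower and 20.4% higher without overlap.

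Heat stress transcription factors bind the promoters of chaperone genes. Their 15 genes summed to 1131 and 1129 CPM in L1 and 1229 and 1154 CPM in L2, against 1480 and 1135 CPM in H1 and 1118 and 1448 CPM in H2, so that H1 A and H2 B were the 2 highest libraries after TMM. With library totals the HSF sum was 1273 and 1253 CPM in L2 A and B, against 1220 CPM in H1 A and 1367 CPM in H2 B, and only H2 B was above L2. The class B factor LOC102597973 (B-2a-like) had 372.7 and 381.3 CPM in L1 and 428.3 and 314.8 CPM in L2, against 605.0 and 417.9 CPM in H1 and 314.6 and 570.5 CPM in H2. The class A factor LOC102581536 (A-5) lay between 315.5 and 414.9 CPM in low TSC and between 301.3 and 397.1 CPM in high TSC. LOC102583973 (A-6b-like) lay between 130.2 and 159.4 CPM in low TSC and between 136.8 and 273.3 CPM in high TSC. Of the genes named heat shock factor protein, LOC102591828 (HSF30-like) lay between 23.9 and 29.5 CPM in low TSC and between 21.1 and 49.2 CPM in high TSC, and LOC102593941 (HSF24) lay between 19.9 and 24.9 CPM in low TSC and between 26.4 and 33.2 CPM in high TSC.

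The last families to describe are Clp proteins and chaperonins. The 5 Clp genes summed to 928.1 and 864.3 CPM in L1 and 660.7 and 645.4 CPM in L2, against 654.2 and 829.7 CPM in H1 and 615.5 and 1067 CPM in H2. ClpB1 (LOC102577597), the cytosolic disaggregase, made up most of it, at 752.5 and 685.7 CPM in L1 and 479.5 and 483.2 CPM in L2, against 562.6 and 644.7 CPM in H1 and 454.4 and 931.2 CPM in H2. It was highest in H2 B and next highest in both L1 libraries. Chloroplastic ClpB3 (LOC102592268) lay between 59.1 and 78.4 CPM in low TSC and between 39.4 and 68.6 CPM in high TSC, and mitochondrial ClpB4 (LOC102597445) between 48.8 and 66.4 CPM in low TSC and between 25.4 and 58.1 CPM in high TSC. In both the lowest library was H1 A, and all 5 Clp genes were higher in H1 B than in H1 A. The chaperonins summed to 2944 and 2123 CPM in L1 and 2526 and 2245 CPM in L2, against 1941 and 2066 CPM in H1 and 2218 and 2150 CPM in H2. The plastid chaperonin-60 beta subunit (LOC102577525) had 1619 and 1081 CPM in L1 and 1358 and 1036 CPM in L2, against 838.0 and 895.8 CPM in H1 and 1142 and 1070 CPM in H2. Mitochondrial CPN60-2 (LOC102582102) lay between 409.3 and 602.5 CPM in low TSC and between 318.4 and 602.6 CPM in high TSC. The 20 kDa co-chaperonin of the chloroplast (LOC102594350) lay between 119.5 and 159.8 CPM in low TSC and between 107.0 and 163.4 CPM in high TSC. Among the chaperonins the 10 kDa gene LOC102587986, chosen after its values were seen, varied most of those with counts in every library, by 4.19-fold. It had 86.9 and 53.6 CPM in L1 and 87.9 and 77.9 CPM in L2, against 177.4 and 63.1 CPM in H1 and 42.3 and 130.0 CPM in H2, with its maxima in H1 A and H2 B.

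The comparisons of the bulks ask whether chaperone expression differs with TSC and with the *AGPaseS-a* class. With edgeR's quasi-likelihood test, none of the 122 genes was a DEG (FDR under 0.05 and absolute log2FC of at least 1.5) in L1 over H1, L2 over H2, low over high TSC, high over low *AGPaseS-a* or the interaction. Over all 20389 tested genes, 0% passed in L1 over H1, L2 over H2, low over high TSC and the interaction, and 0.0049% (1 gene) in high over low *AGPaseS-a*. At an unadjusted p under 0.05 by the same test, the numbers of chaperone genes in these 5 contrasts were 8, 1, 8, 4 and 3. With DESeq2 without shrinkage, 1 gene passed the FDR and fold limits in low over high TSC and in high over low *AGPaseS-a*, the same gene in both, LOC102584503, and 0 passed in the other 3 contrasts. Of all genes with a DESeq2 FDR, 0.336% passed in low over high TSC, 0.193% in high over low *AGPaseS-a*, 0.177% in L1 over H1, 0.127% in L2 over H2 and 0.0234% in the interaction.

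In L1 over H1, all 8 genes at an unadjusted p under 0.05 were lower in L1 and none was higher. Over all tested genes the share at this limit was 5.73%, with 3.34% lower and 2.39% higher. After TMM, groups did not overlap for 17 genes higher and 24 lower in L1, beside 20.4% and 16.8% of all tested genes. The median log2FC of the 122 genes was -0.11, beside 0.02 over all tested genes. By family it was -0.60 in HSP20 (5 of 29 positive), 0.18 in HSP70 (13 of 19), -0.42 in HSP90 (0 of 6) and -0.04 in DnaJ (13 of 29). It was -0.40 in HSF, 0.28 in Clp, where all 5 genes were positive, and 0.27 in the chaperonins. Most of these medians moved with single libraries. Without H1 A they were 0.02 in HSP20, -0.18 in HSP90, 0.12 in DnaJ, -0.09 in HSF and -0.11 in Clp. The Clp median was 0.93 and the HSP70 median 0.49 without H1 B, the HSP70 median was 0.02 without L1 B, and the chaperonin median was 0.06 without L1 A. With library totals in place of TMM the median of the 122 genes was 0.05, while that of all genes was 0.144.

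For L2 over H2, 1 gene had an unadjusted p under 0.05, and it was higher in L2. Of all tested genes, 2.36% reached this limit, 1.04% higher and 1.32% lower. After TMM, groups did not overlap for 18 genes higher and 21 lower in L2, beside 17.3% and 14.8% of all tested genes. The median log2FC was 0.10 in HSP20 (17 of 29 positive), 0.05 in HSP70, -0.12 in HSP90 and -0.04 in DnaJ, and 0.01 over all tested genes. Here too the HSP20 value depended on single libraries, with medians of 0.90 without H2 B, -0.47 without H2 A and -0.46 without L2 A. The HSP90 median was 0.26 without H2 B and -0.30 without H2 A.

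**Figure D4:**
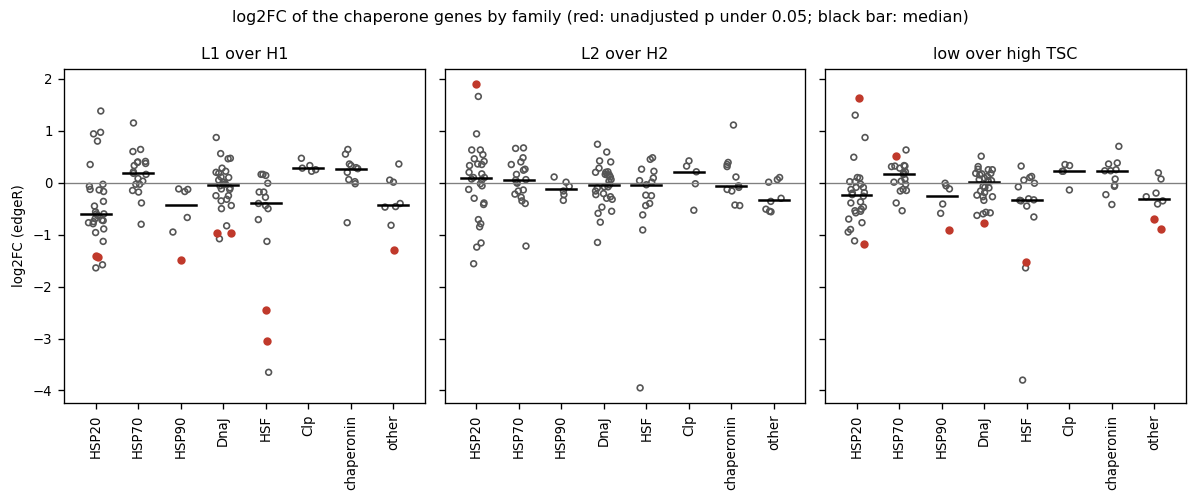
Log2FC from edgeR (y axis) of each of the 122 genes by family (x axis) for L1 over H1, L2 over H2 and low over high TSC; red points have an unadjusted p under 0.05 and black bars are family medians. HSP20 genes lie mostly below 0 in L1 over H1 (median -0.60) and on both sides of 0 in L2 over H2 (median 0.10). The DnaJ median is close to 0 in each, with genes from -1.08 to 0.87, -1.15 to 0.74 and -0.78 to 0.51 in the same order.

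Over both *AGPaseS-a* classes, 8 genes had an unadjusted p under 0.05 in low over high TSC, 2 higher and 6 lower in low TSC, beside 7.84% of all tested genes, 3.09% higher and 4.75% lower. After TMM, the 4 low-TSC and 4 high-TSC libraries did not overlap for 1 gene higher and 4 lower in low TSC, beside 3.42% and 2.82% of all tested genes. The higher one was LOC102591210, chaperonin 60 subunit alpha 2, with 78.8 to 93.7 CPM in low TSC and 61.7 to 75.0 CPM in high TSC. The lower ones were LOC102604072, LOC102583863, LOC102593941 and LOC102582042, a dnaJ 15-like gene with 13.5 to 14.1 CPM in low TSC and 14.7 to 19.9 CPM in high TSC (the first and last gene of this paragraph were chosen after their values were seen). Gaps between the groups were narrow in LOC102582042 (14.1 against 14.7 CPM) and LOC102593941 (24.9 against 26.4 CPM). Overlap was not counted with library totals, a scaling that gave H1 A lower levels than TMM did. Median log2FC was -0.23 in HSP20, 0.16 in HSP70, -0.27 in HSP90, 0.02 in DnaJ and 0.02 over all tested genes. The HSP20 median was 0.21 without H2 B and -0.54 without L2 A, and 0.35 with H1 A and H2 B both left out. Under the same changes of libraries the HSP90 median lay between -0.45 (without L2 A) and -0.01 (without H1 A and H2 B), and the HSP70 median between 0.03 (without H1 A and H2 B) and 0.32 (without H1 B).

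LOC102584503, a small heat shock protein of the chloroplast, was the gene with an unadjusted p under 0.05 in L2 over H2. It had 32.6 and 19.3 CPM in L1 A and B and 138.2 and 68.6 CPM in L2 A and B, against 15.2 and 4.99 CPM in H1 A and B and 16.97 and 38.4 CPM in H2 A and B. Both L1 libraries were above both H1 libraries and both L2 libraries above both H2 libraries, while over all 4 against 4 libraries the groups overlapped. Its log2FC was 1.90 (SE 0.62) in L2 over H2, 1.38 (SE 0.62) in L1 over H1 and 1.64 (SE 0.44) in low over high TSC. In edgeR (quasi-likelihood test, Benjamini-Hochberg), the adjusted p over all genes was 1, 0.79 and 0.62 for these contrasts. DESeq2 gave 1.61 (SE 0.43) with an adjusted p of 0.0389 in low over high TSC. The gene lies on scaffold NW_006239018.1 at positions 181156 to 182298.

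Of the genes lower in low TSC, LOC102604072, heat shock factor-binding protein 1, a small protein that binds heat shock factors and dampens their activity, had 6.99 and 6.77 CPM in L1 and 7.10 and 8.79 CPM in L2, against 23.8 and 10.2 CPM in H1 and 9.14 and 13.4 CPM in H2. After TMM every low-TSC library was under every high-TSC library, but H1 A and H2 B were the highest. The gap was narrow, with 8.79 CPM in L2 B against 9.14 CPM in H2 A, and was not examined with library totals. The log2FC was -0.90 (SE 0.31) with an edgeR adjusted p of 0.62, and it lay between -1.14 and -0.38 when libraries were left out, the last value without both H1 A and H2 B. LOC102583863, a dnaJ 6-like gene, had 8.12 and 6.60 CPM in L1 and 9.09 and 9.45 CPM in L2, against 19.1 and 9.85 CPM in H1 and 10.7 and 17.1 CPM in H2. The edgeR log2FC was -0.78 (SE 0.28, adjusted p 0.62), and between -0.97 and -0.31 when libraries were left out, the last value without both H1 A and H2 B. LOC102599235, the activator of the HSP90 ATPase, had 88.2 and 70.5 CPM in L1 and 78.2 and 73.8 CPM in L2, against 179.5 and 100.6 CPM in H1 and 81.0 and 143.5 CPM in H2. Both L1 libraries were under both H1 libraries and both L2 libraries under both H2 libraries. Over all low-TSC against all high-TSC libraries its groups overlapped (log2FC -0.69, SE 0.26, edgeR adjusted p 0.62).

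Further genes had an unadjusted p under 0.05 with lower values in L1 than in H1. Heat shock cognate protein 80 (LOC102604977), a constitutive HSP90, had 42.4 and 37.3 CPM in L1 and 56.4 and 60.4 CPM in L2, against 171.9 and 51.1 CPM in H1 and 48.7 and 99.5 CPM in H2. The log2FC in L1 over H1 was -1.48 (SE 0.55, edgeR adjusted p 0.79), and between -2.10 and -0.35 when libraries were left out, the last value without H1 A. Its highest values were in H1 A and H2 B. The transcription factor HSF B-3 (LOC102601498) had 0.282 and 1.54 CPM in L1 and 1.41 and 2.58 CPM in L2, against 7.86 and 2.15 CPM in H1 and 2.98 and 3.14 CPM in H2 (log2FC in L1 over H1 -2.45, SE 0.92, edgeR adjusted p 0.79). It was -1.23 without H1 A and -4.11 without L1 B. HSF A-7a-like (LOC107061025) was expressed at a low level, with 0.251 and 0.171 CPM in L1 against 2.78 and 0.793 CPM in H1 (log2FC -3.04, SE 1.30, edgeR adjusted p 0.79), and between -3.68 without H1 B and -1.88 without H1 A. The class IV gene LOC102603518, chosen after its values were seen, had 16.1 and 13.4 CPM in L1 and 56.9 and 34.5 CPM in L2, against 44.2 and 35.3 CPM in H1 and 18.4 and 53.2 CPM in H2. Here L1 was low and H1 high in both replicates, with a log2FC of -1.43 (SE 0.48, edgeR adjusted p 0.79).

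**Figure D5:**
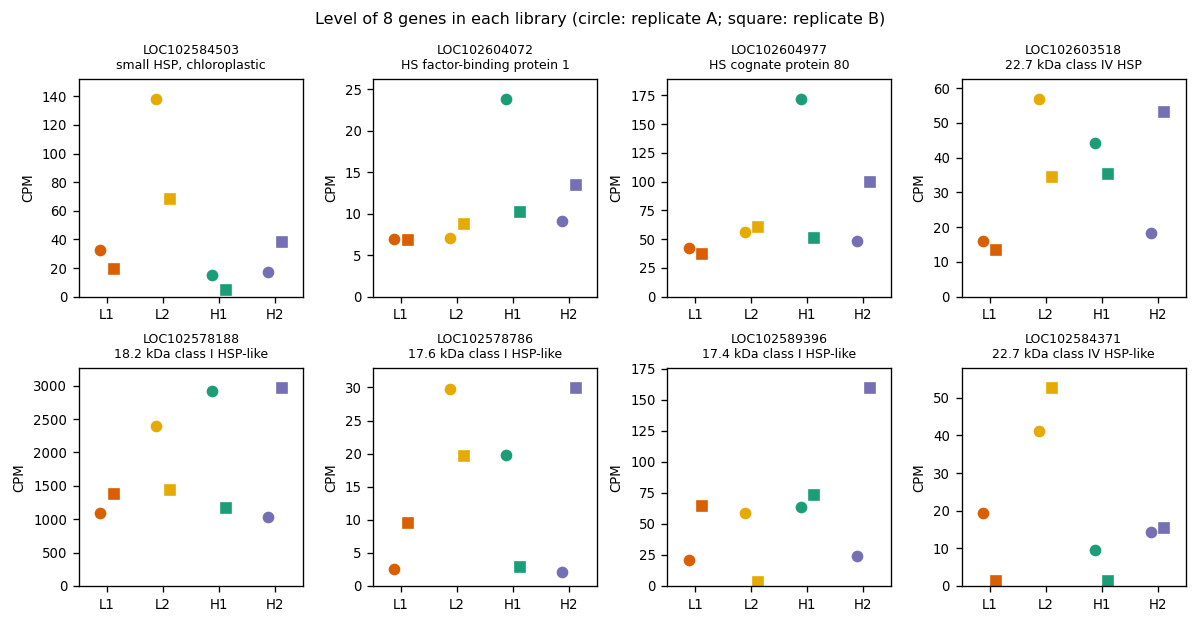
CPM (y axis, from 0) of 8 genes in bulks L1, L2, H1 and H2 (x axis); circles are replicate A and squares replicate B. LOC102584503 is highest in L2 (138.2 and 68.6 CPM), LOC102604072 and LOC102604977 are highest in H1 A, and LOC102578188, LOC102578786 and LOC102589396 are highest in H2 B, at 2963, 29.9 and 159.4 CPM.

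In the contrast of high over low *AGPaseS-a* (L1 and H1 over L2 and H2), 4 genes had an unadjusted p under 0.05 and all were lower in the high class, beside 3.13% of all tested genes, 1.46% higher and 1.68% lower. They were LOC102584503 (log2FC -1.73, SE 0.44), LOC102584371 (-1.83, SE 0.78), the dnaJ 20-like gene LOC102605695 (-1.04, SE 0.38) and the heat shock protein 83-like gene LOC102581810 (-0.86, SE 0.33). Each had an adjusted p of 1 by edgeR (quasi-likelihood test, Benjamini-Hochberg), and DESeq2 gave LOC102584503 an adjusted p of 0.0275. After TMM, no gene had groups without overlap, beside 0.961% of all tested genes higher and 1.30% lower. The median log2FC was -0.25 in HSP20, where 4 of 29 genes were positive, 0.00 in HSP70, 0.05 in HSP90, -0.01 in DnaJ and 0.00 over all tested genes. Without H2 B the HSP20 median was 0.09 and without H1 A -0.59, and the HSP90 median was 0.22 without H2 B and -0.28 without H1 A. The class was set by *AGPaseS-a* expression measured before, and not by any chaperone gene.

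The interaction, which asks whether the difference between low and high TSC is itself different in the 2 *AGPaseS-a* classes, gave 3 genes at an unadjusted p under 0.05, all HSP20, beside 1.57% of all tested genes, 0.839% higher and 0.736% lower. LOC102603518 (-1.78, SE 0.68) and LOC102605762 (-1.86, SE 0.80), a 17.7 kDa class I gene, had the lower log2FC in L1 over H1, and LOC102591787 (1.77, SE 0.71), a class V gene, the higher one. All had an edgeR adjusted p of 1. The HSP20 median was -0.46, but 0.12 without H1 A and -1.12 without H2 B.

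Other folding genes, 61 in all, were set beside these families (luminal-binding protein, calreticulin, calnexin, BAG proteins, prefoldin, co-chaperones of HSP70 and HSP90 and further DnaJ homologs). Of the 56 that passed the filter, edgeR called none in any contrast. At an unadjusted p under 0.05, 2 were lower in L1 over H1 (3.57%, beside 5.73% of all tested genes) and 0 differed in L2 over H2 (beside 2.36%). For low over high TSC, 1 was higher and 2 were lower (5.36%, beside 7.84%). For high over low *AGPaseS-a*, 1 was higher and 2 were lower (5.36%, beside 3.13%), and 1 was lower in the interaction (1.79%, beside 1.57%). Their median log2FC was -0.14 in L1 over H1 and -0.11 in L2 over H2. Their summed level after TMM was 14810 and 15890 CPM in L1 and 20790 and 14510 CPM in L2, against 21340 and 17280 CPM in H1 and 17670 and 22250 CPM in H2. After TMM the same 3 libraries were on top as in HSP20. The order with library totals, which gave H1 A lower levels, was not examined.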

How the data were processed

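Poly(A) RNA of pooled tubers was sequenced from directional libraries on 8 libraries of 4 bulks. After trimming (Trimmomatic), the authors mapped read pairs to SolTub_3.0 by TopHat 2.0.9 (Bowtie 2.1.0) and deposited raw counts per gene from HTSeq. The table of counts also has 2 columns that match no sample, and these were not used. The authors' comparison tables gave product names, positions and protein domains. Their normalized counts, fold changes, p-values and FDR, made with DESeq, were not used.

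Low-count genes were filtered out (filterByExpr), libraries were scaled with TMM, and all 8 libraries were fitted with 1 mean per bulk in edgeR 4.0.16 (R 4.3.3, quasi-likelihood test, Benjamini-Hochberg over 20389 genes). DEGs were defined by the study's limits, an FDR under 0.05 with a log2FC of 1.5 or more in either direction. Alternatives were RLE size factors, library totals, DESeq2 1.42.0, the 4 libraries of a comparison only, no filter on low counts, a replicate block by letter, leaving out single libraries and a minimum of 800 counts. Leaving out a library leaves a bulk with 1 library, which is assumed to vary like the others. Named genes were the 3 with the highest mean CPM of each family, up to 3 per direction and contrast with the largest change among those with an unadjusted p under 0.05 and no overlap, and the 3 with the largest ratio between replicates in H1 and in H2 (mean of at least 5 CPM). The remaining genes named stand out by position, by a small count or after their values were seen. The members, families and lists were chosen with earlier results of these data known. Promoter and protein sequences were not analysed here.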

Additional observations from a re-analysis of the deposited data

Results flagged for a closer look

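Among 86 groups of 4 libraries (the family sums and the named genes, in low and in high TSC), 4 had 1 library that stood apart by Dixon's ratio, the gap to the nearest library over the range of the group, and chance flags about 1 in 20 groups. In low TSC, L2 A was highest for the summed HSP20 level (4793 CPM, ratio 0.846) and for the summed HSP90 level (1130 CPM, ratio 0.851). The sum of the 8 other genes was highest in L1 A (186.4 CPM, ratio 0.892), although the 4 libraries ranged only down to 172.2 CPM. LOC102604072 was highest in L2 B (8.79 CPM, ratio 0.837).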

How the results depend on the processing

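No chaperone gene was called by edgeR under any alternative, and DESeq2 called 1 gene (LOC102584503) in low over high TSC and 1, the same, in high over low *AGPaseS-a*. The counts at an unadjusted p under 0.05 (8 in L1 over H1, 1 in L2 over H2, 8 in low over high TSC, 4 in high over low *AGPaseS-a* and 3 in the interaction) moved more. DESeq2 gave 14 in L1 over H1, 2 in L2 over H2 and 5 in the interaction. Without the filter they were 2 in L2 over H2, 8 for *AGPaseS-a* and 5 in the interaction. With only the 4 libraries of the comparison the count was 3 in L2 over H2 (2.5%, beside 3.13% of all tested genes). When libraries were left out, they ranged from 1 to 29 in L1 over H1, 2 to 15 in L2 over H2, 3 to 24 in low over high TSC, 2 to 13 for *AGPaseS-a* and 1 to 15 in the interaction, with 0 to 0 called in each. The share of all tested genes moved too. Without H1 B, 29, 24 and 15 of the 122 genes reached the limit in L1 over H1, low over high TSC and the interaction (23.8%, 19.7% and 12.3%), beside 24.1%, 24.2% and 10.7% of all tested genes. Without H2 A, 13 and 14 reached it in L2 over H2 and low over high TSC (10.7% and 11.5%), beside 8.78% and 15.6%. Without both H1 A and H2 B, a setting chosen after seeing the data, 15, 13 and 10 reached it in L2 over H2, for *AGPaseS-a* and in the interaction (12.3%, 10.7% and 8.20%), beside 5.53%, 6.35% and 4.70%. Without L1 A, 1 reached it in L1 over H1 (0.820%), beside 2.14%. The DESeq2 counts of 14, 2 and 5 stood beside 6.64%, 2.72% and 1.97%, and those without the filter beside 2.32%, 2.99% and 1.57%. The cause was not tested.

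With the replicate letter as a replicate block the counts were 7, 1, 5, 5 and 4 in the same order of contrasts, with 0 called. These were 5.74%, 0.82%, 4.1%, 4.1% and 3.28% of the 122 genes, beside 3.74%, 1.72%, 5.56%, 2.43% and 1.09% of all tested genes. The labels do not pair the letters, and the correlation of A minus B between bulks lay between -0.536 (H1 and H2) and 0.196 (L1 and H1), with -0.127 for L2 and H2. A crossed replicate block for L2 over H2, added after seeing the data, gave 4 at an unadjusted p under 0.05 and 0 called. The 4 genes were 3.28%, beside 3.26% of all tested genes.

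Library totals moved the median log2FC of all genes to 0.144 in L1 over H1, 0.119 in L2 over H2 and 0.139 in low over high TSC. With library totals, 1 HSP20 gene in place of 0 was higher in A in H2, 19 in place of 24 in H1, 21 in place of 23 in L2 and 14 in place of 16 in L1. With a minimum of 800 counts, 102 genes would be kept. The fit has 2 libraries per bulk, which limits what it can call.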
